A study of Mus musculus with 6 samples.

Results

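Transcription factors of the TCF/LEF, MYC, SOX and ASCL families that act in the intestinal crypt were examined in mouse small intestinal organoids treated with MMK-1, a peptide agonist of formyl peptide receptor 2 (FPR2). The 10 genes were Ascl2, Sox9, Sox4, Myc, Mycn, Mycl, Tcf7, Lef1, Tcf7l1 and Tcf7l2, and they were taken by symbol from a table of 21397 genes. All organoids were derived from Fpr2f/f mice on the C57BL/6J background, which carry loxP-flanked Fpr2 alleles, and no Cre is named for them in either group. The MMK-1 group was exposed to 1 μM MMK-1 for 5 days and the Control group to 0.1% DMSO, the vehicle, with 3 libraries per group. For the dose, the protocol in the labels was followed; the treatment tag of the same samples reads 1 mM. Per the study's methods the mice were young adults matched for age and sex, and a figure legend of the study says that the organoids in each sample came from 3 mice. The study's methods speak in general of independent experiments, but whether these 3 samples of a group came from separate cultures or shared the same mice was not stated for this series, so the p-values measure only the spread between these samples, which may be technical.

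In the crypt, Wnt ligands stabilise β-catenin, which enters the nucleus and binds TCF/LEF proteins at their target genes; without it the same proteins are held silent by Groucho/TLE corepressors. Among the targets are Myc and Ascl2, and ASCL2 in turn acts with TCF at genes of the crypt-base stem cells. MYC proteins bind DNA as heterodimers with MAX and drive ribosome synthesis and metabolism, whereas MXD proteins compete for MAX and oppose them. SOX9 is a Wnt-responsive HMG-box factor of the crypt base that is needed for Paneth cells, and SOX4 is an HMG-box factor of progenitors that has been tied to the enteroendocrine and tuft lineages.

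The upstream sequences of Ascl2 and Sox4, genes whose mRNA rose with MMK-1, and of Mycn, whose mRNA did not pass the test, are shown to place the comparison at the level of the loci. They are taken from the RefSeq promoter table (GRCm38.p6) and run 5′ to 3′ on the strand of the gene, over the bases before the RefSeq start that also lie outside the GENCODE gene. Capitals mark matches, on either strand, to any of the 7 short motifs searched, which are spelled out after the sequences.
Ascl2 (chr7:142969265-142969514, minus strand): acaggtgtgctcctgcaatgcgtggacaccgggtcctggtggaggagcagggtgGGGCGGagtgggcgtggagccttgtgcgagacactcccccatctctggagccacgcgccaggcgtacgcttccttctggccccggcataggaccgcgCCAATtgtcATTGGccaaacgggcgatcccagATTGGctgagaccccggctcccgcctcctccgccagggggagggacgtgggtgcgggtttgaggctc
Sox4 (chr13:28953714-28953949, minus strand): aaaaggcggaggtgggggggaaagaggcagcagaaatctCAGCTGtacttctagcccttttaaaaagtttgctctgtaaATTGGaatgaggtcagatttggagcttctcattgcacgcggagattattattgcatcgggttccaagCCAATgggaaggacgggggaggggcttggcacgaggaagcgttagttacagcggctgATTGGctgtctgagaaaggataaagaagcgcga
Mycn (chr12:12941915-12942086, minus strand): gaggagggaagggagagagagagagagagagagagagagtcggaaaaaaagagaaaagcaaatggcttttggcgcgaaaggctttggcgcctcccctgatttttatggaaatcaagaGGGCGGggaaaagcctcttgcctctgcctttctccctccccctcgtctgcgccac

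Motifs were counted over all 250 bases before each RefSeq start, the length used for the shares over 32851 mouse promoters; the stretch of Sox4 shown leaves out the last 14 of these bases and that of Mycn the last 78. Ascl2 held 3 and Sox4 held 4 copies, over both strands, of the CCAAT box, the letters bound by the NF-Y complex; 33.8% of all promoters held at least 1 copy and 2.79% held 3 or more. The other 6 genes with an entry held 0 copies, and these include Mycl, Tcf7 and Tcf7l2, which rose, as well as Mycn. The TCF/LEF core CTTTGA, present in 13.8% of all promoters, was not found for Ascl2, Sox4 or Mycl, while Mycn held 1 copy at position -13 from the start, in the bases not shown. The core CTTTGT, present in 16.5%, which on its other strand also reads as a SOX core, was not found for Ascl2, Sox4, Mycn or Mycl. The same held for the MYC E-box CACGTG, present in 6.02%. Among the remaining TCF/LEF genes, CTTTGT was found once for Tcf7l1, at 1 of the starts of Tcf7l2 and at 1 of those of Lef1, and that start of Lef1 also held 2 copies of CTTTGA and 1 of CACGTG. Sox4 held 1 copy of the bHLH E-box CAGCTG, present in 13% of all promoters, which was also found at 1 start of Tcf7 and 1 of Lef1. The GC box GGGCGG, present in 32.7%, had 1 copy for Ascl2, 1 for Mycl and 2 for Mycn, of which the copy at -63 is in the bases not shown. It was also found for Tcf7, Lef1, Tcf7l1 and Tcf7l2, and not for Sox4. The TATA box TATAAA, present in 12.4%, was not found for Ascl2, Sox4 or Mycn, while Mycl held 1 copy at position -8. A TATA box match was also found at 1 start each of Tcf7, Tcf7l2 and Lef1. These matches describe letters and not binding. In the table, 8 of the 10 genes had an entry, and Myc and Sox9 were not in it.

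The libraries held 35512739 to 37537463 fragments, as implied by the steps of the FPKM values (fragments per kilobase of gene length, scaled to sequencing depth). MMK-1 replicate 3 stood apart, with a chi-square per degree of freedom of 29.4 and 34.4 against the other MMK-1 libraries, where the remaining pairs of replicates gave 2.78 to 4.78, and results that turn on it are given with and without it. Epcam, which marks epithelium, was at 390 to 394 FPKM in the Control and 377 to 415 FPKM in the MMK-1 libraries. The 6 epithelial markers read, Epcam among them, summed to 2362 to 2383 FPKM in Control and 1716 to 1867 FPKM in MMK-1 libraries. The markers of fibroblasts summed to 0.147 FPKM or less and those of endothelium to 0.233 FPKM or less in every library, and Kdr, which marks endothelium, was at 0 throughout. Since RNA was measured in bulk, a change in the number of cells of a type and a change in RNA per cell cannot be told apart.

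With MMK-1, 6 of the 7 genes tested rose and none fell. Sox4, Mycl, Sox9 and Ascl2 rose by more than 2-fold, Tcf7l2 and Myc rose by less, Mycn did not pass the test, and Tcf7, Lef1 and Tcf7l1 lay under the limit of a mean of 1 FPKM. Of the 10551 genes tested with limma on log2(FPKM + 1) at an adjusted p of at most 0.05, 48.5% were higher and 24.7% lower with MMK-1, and 3.39% were higher by at least 2-fold on that scale. The 6 of 7 tested genes called higher are read against the first of these shares, and the 4 of 7 past 2-fold against the last. The genes were chosen with earlier results of these data known, so neither count is independent evidence. Across all genes tested the median log2 fold change was 0.13, and scaling each library to its upper quartile moved it to -0.0036 and turned the split from 5118 higher and 2606 lower into 3673 higher and 3905 lower. Under that scaling the same 6 genes were called higher, where 34.8% of all genes were higher and 37% lower, and 3 of them exceeded 2-fold, where 2.13% did.

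**Figure D1:**
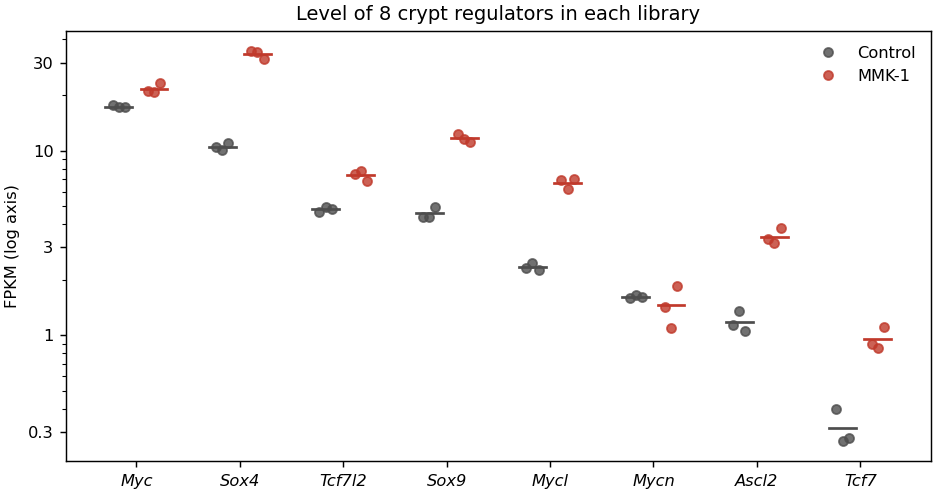
FPKM (log axis) of the 8 genes detected above the floor of 3 fragments in both groups, with 1 point per library and a bar at the mean of each group of 3. Sox4, Sox9, Mycl, Ascl2 and Tcf7 show MMK-1 libraries far above all Control libraries, Myc and Tcf7l2 a smaller gap, and Mycn overlapping groups.

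Sox4 (NCBI gene 20677, chr13:28948919-28953713, minus strand, GRCm38) was the gene of the group with the largest increase. It stood at 10.41, 10.12 and 10.96 FPKM in the Control libraries and at 34.7, 34.2 and 31.3 FPKM in the MMK-1 libraries, which is 1864, 1817 and 1959 fragments against 5898, 5881 and 5550. Every MMK-1 library lay above every Control library, as was the case for 76.8% of genes tested in one or the other direction. The mean rose 3.18-fold, from 10.5 ± 0.425 to 33.4 ± 1.88 FPKM (SD, n = 3 each), with a log2 fold change on the log2(FPKM + 1) scale of 1.58 (SE 0.0536, limma adjusted p = 4.9e-08). This placed Sox4 at rank 66 of 10551 genes by log2 fold change. Under upper-quartile scaling the log2 fold change was 1.43. An antisense gene, Gm26735, overlaps Sox4 on the opposite strand, and because the use of strand in counting was not stated, fragments of the pair cannot be told apart.

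Sox9 (NCBI gene 20682, chr11:112782224-112787760, plus strand) was at 4.38, 4.40 and 4.98 FPKM in Control and at 12.3, 11.6 and 11.1 FPKM in MMK-1 organoids. The groups did not overlap, and the lowest MMK-1 library held 1706 fragments where the highest Control library held 772. The mean rose 2.55-fold, from 4.59 ± 0.343 to 11.7 ± 0.634 FPKM (SD, n = 3 each), with a log2 fold change of 1.18 (SE 0.0612, limma adjusted p = 5.0e-07). Sox9 is one of the genes that the study itself singled out in these libraries, so its direction here is not independent evidence.

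Markers of epithelial cell types were read beside these factors, and their counts beside the 48.5% higher and 24.7% lower of all genes tested. Markers of Paneth cells, the crypt-base cells that contain SOX9, were higher for 6 of the 6 tested, and their summed level was 392.1 to 434.4 FPKM in Control and 1276 to 1404 FPKM in MMK-1 libraries. Enteroendocrine markers were higher for 6 of the 9 tested, with sums of 276 to 291 FPKM and 352 to 376 FPKM, though Chga, a defining marker, was at 40.5 and 42.0 FPKM (limma adjusted p = 0.38). The 7 tuft cell markers were all under the limit for testing and summed to 1.47 to 1.61 FPKM in Control and 2.20 to 2.35 FPKM in MMK-1 libraries. The largest difference was that of Pou2f3, at 0.213 and 0.614 FPKM, which the study also singled out in these libraries. Avil, at 0.563 and 0.532 FPKM, and Gfi1b, at 0.0244 and 0.0205 FPKM, did not rise. Enterocyte markers went the other way, with 8 of 10 lower, 1 higher and sums of 13746 to 13934 FPKM against 9903 to 10676 FPKM. Goblet cell markers were split, with 5 of 7 higher and 2 lower, and sums of 1836 to 1982 FPKM against 1977 to 2158 FPKM. Of 6 general epithelial markers 2 were higher and 3 lower, among them Vil1, a brush border protein, with a log2 fold change of -1.21. The part of these cell types in the levels of Sox9, Sox4 and Ascl2 was not tested.

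Ascl2 (NCBI gene 17173, chr7:142966829-142969264, minus strand), the bHLH factor of crypt-base stem cells, was a low transcript in both groups. It was at 1.14, 1.36 and 1.06 FPKM in Control and at 3.32, 3.18 and 3.79 FPKM in MMK-1 organoids, from 69, 82 and 64 fragments against 190, 184 and 227. Every MMK-1 library held more than any Control library. The mean rose 2.89-fold, from 1.19 ± 0.151 to 3.43 ± 0.322 FPKM (SD, n = 3 each). The log2 fold change was 1.02 with the pseudocount of 1 (SE 0.0760, limma adjusted p = 4.4e-06) and the plain log2 ratio of the means 1.53, since the pseudocount understates changes of low genes. Ascl2 lay close to 2-fold on the log2(FPKM + 1) scale and fell under it in several alternatives, with a log2 fold change of 0.91 under upper-quartile scaling, 0.92 under median-of-ratios scaling and 0.99 with GC content removed. It was also under 2-fold without MMK-1 replicate 3, at 0.96, and without Control replicate 3, at 0.98.

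The 3 MYC genes responded unequally. Myc (NCBI gene 17869, chr15:61985391-61990374, plus strand), the main MYC gene of crypt progenitors, was at 17.6, 17.2 and 17.2 FPKM in Control and at 20.9, 20.8 and 23.1 FPKM in MMK-1 organoids. Its groups did not overlap, and the mean rose 1.25-fold, from 17.3 ± 0.221 to 21.6 ± 1.29 FPKM (SD, n = 3 each), with a log2 fold change of 0.30 (SE 0.05, limma adjusted p = 0.00058). This lies at the percentile 66.3 of all genes tested, and under upper-quartile scaling the log2 fold change was 0.15 (limma adjusted p = 0.012). The change of Myc thus lay within the quartiles of all genes tested.

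Mycl (NCBI gene 16918, chr4:122995652-123002485, plus strand), the L-Myc gene, rose far more than Myc. It was at 2.33, 2.46 and 2.26 FPKM in Control and at 6.92, 6.17 and 7.02 FPKM in MMK-1 organoids, again without overlap. The mean rose 2.85-fold, from 2.35 ± 0.103 to 6.70 ± 0.464 FPKM (SD, n = 3 each), with a log2 fold change of 1.20 (SE 0.0601, limma adjusted p = 4.1e-07). Mycl is also a gene of dendritic cells. The myeloid markers, of which 7 of 8 were in the table, summed to 3.82 to 4.30 FPKM in Control and to 1.62 to 2.18 FPKM in MMK-1 libraries. That sum was mostly Cd68, a lysosomal protein, at 3.17 and 1.15 FPKM, and Csf1r, at 0.152 and 0.00703 FPKM, and Lyz2, at 0.699 and 0.568 FPKM, were lower too. Tyrobp was at 0.0310 and 0.0631 FPKM, Itgax, a dendritic cell marker, was at 0 in all 6 libraries, and Batf3 was above 0 in 1 MMK-1 library. The part of myeloid cells in the level of Mycl was not tested.

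Mycn (NCBI gene 18109, chr12:12936093-12941914, minus strand) did not follow the other MYC genes. It was at 1.58, 1.66 and 1.61 FPKM in Control and at 1.42, 1.09 and 1.86 FPKM in MMK-1 organoids, so the MMK-1 libraries lay on both sides of the Control range. The log2 fold change was -0.10 (SE 0.104, limma adjusted p = 0.39; exact two-sided permutation p = 0.7). MMK-1 replicate 3 was the highest of the 6 libraries, and without it Mycn was called lower, at -0.22 (limma adjusted p = 0.029). Without MMK-1 replicate 2 the log2 fold change was 0.0066 (limma adjusted p = 0.95), so its sign turned on single libraries.

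Within each library the balance of the MYC genes shifted toward Mycl, a measure that does not depend on the scaling between libraries. Mycl made up 10.8%, 11.5% and 10.7% of the summed level (FPKM) of Myc, Mycn and Mycl in Control and 23.7%, 22.0% and 21.9% in MMK-1 organoids. Myc fell in share from 81.4 ± 0.601% to 72.6 ± 1.37% (SD, n = 3 each), although its own level was higher. The share of Mycn was 7.598 ± 0.213% in Control and 4.85 ± 0.955% in MMK-1 organoids, and here its groups did not overlap. Each of the 3 shares gave an exact two-sided permutation p of 0.1, the smallest that 3 against 3 libraries allow, so none could pass 0.05. The summed level itself was 21.3 ± 0.228 FPKM in Control and 29.8 ± 2.00 FPKM in MMK-1 organoids.

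**Figure D2:**
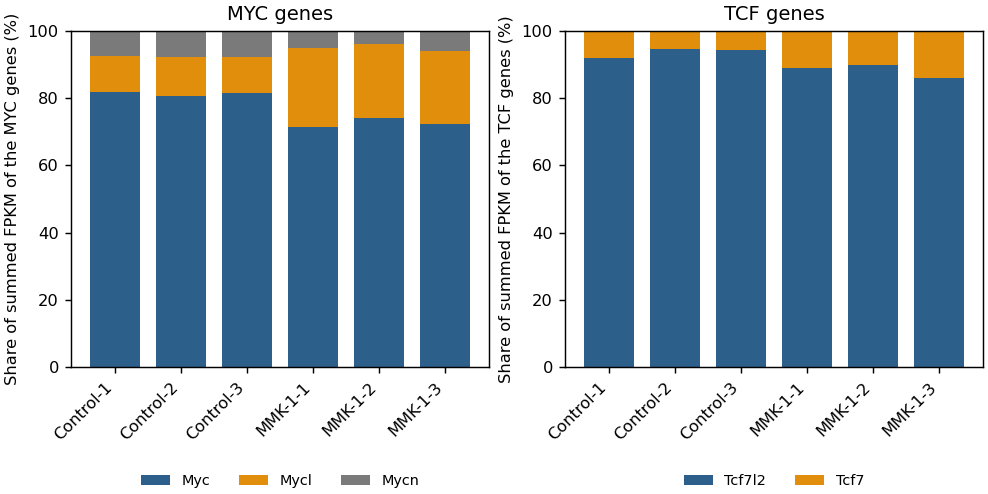
Share of each gene in the summed FPKM of Myc, Mycl and Mycn (left) and of the TCF/LEF genes (right), in percent, with 1 stacked bar per library. Mycl takes 10.7% to 11.5% of the MYC sum in Control and 21.9% to 23.7% in MMK-1 libraries, and Tcf7 takes 5.09% to 7.89% and 9.85% to 13.8% of the TCF sum; Lef1 and Tcf7l1, each at 0.223% or less, are not drawn.

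Of the TCF/LEF genes, Tcf7l2 (TCF4; NCBI gene 21416, chr19:55741820-55933654, plus strand), the main β-catenin partner of the intestinal epithelium, had the highest level. It was at 4.637, 4.967 and 4.827 FPKM in Control and at 7.505, 7.765 and 6.889 FPKM in MMK-1 organoids. The groups did not overlap, and the mean rose 1.54-fold, with a log2 fold change of 0.53 (SE 0.0555, limma adjusted p = 3.6e-05). Under upper-quartile scaling it was 0.39 (limma adjusted p = 0.00046).

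Tcf7 (TCF1; NCBI gene 21414, chr11:52252371-52283014, minus strand), which is both a TCF protein and a Wnt target, was at 0.397, 0.266 and 0.278 FPKM in Control and at 0.903, 0.851 and 1.11 FPKM in MMK-1 organoids. All MMK-1 libraries lay above all Control libraries, as 52.8% of the genes above 0 were without overlap in one or the other direction, and the mean was 3.04-fold higher. Because its mean was under 1 FPKM it entered only the fits with a lower limit. In the fit of all 20676 genes above 0, of which 28.1% were called higher, Tcf7 rose with a log2 fold change of 0.57 (SE 0.0651, limma adjusted p = 0.00099), and in a voom fit of the recovered fragments, 189, 127 and 132 against 407, 388 and 522, it rose by 1.62 (SE 0.171, adjusted p = 1.0e-05), where 45.3% of 13309 genes were called higher. Its low FPKM goes with a long gene length: the values imply 12697 bases, where the longest GENCODE transcript has 2471, so the level of Tcf7 relative to other genes is uncertain, while the ratio between groups does not depend on the length.

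Lef1 (NCBI gene 16842, chr3:131110471-131224356, plus strand) and Tcf7l1 (TCF3; NCBI gene 21415, chr6:72626378-72789254, minus strand) were at the edge of detection. Lef1, whose product is prominent in lymphocytes and in Wnt-driven tumours, had 0 fragments in each Control library and 1, 2 and 3 in the MMK-1 libraries. Tcf7l1, mostly a repressor, had 1, 2 and 0 fragments in Control and 6, 2 and 1 in MMK-1 libraries. A count of 0 allows up to 3 fragments, so no fold is given, and in the fit of all genes above 0 neither passed (limma adjusted p = 0.093 for Lef1 and 0.47 for Tcf7l1). These counts cover counting error only, and Gm43352 and Gm15401 overlap Lef1 and Tcf7l1 on the opposite strand. The counts are also about the smallest that fit the values and could be higher by a whole factor shared by all libraries.

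Tcf7 and Lef1 are also expressed in T cells. Of 9 T cell markers 3 were in the table, and they summed to 0.0163 to 0.0340 FPKM in Control and to 0.237 to 0.458 FPKM in MMK-1 libraries. The difference was mostly Lck, a T cell kinase, at 0.00783 and 0.317 FPKM, while the defining markers Cd3e, at 0.0117 and 0.00592 FPKM, and Ptprc, at 0.00757 and 0.00311 FPKM, were near 0 in both groups. The part of T cells in the levels of Tcf7 and Lef1 was not tested.

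The balance of the TCF genes moved toward Tcf7. Its share of the summed TCF/LEF level (FPKM) was 6.14 ± 1.53% in Control and 11.5 ± 2.08% in MMK-1 organoids, and that of Tcf7l2 was 93.8 ± 1.52% and 88.3 ± 2.10% (SD, n = 3 each, exact two-sided permutation p = 0.1 for both, the smallest possible). Neither pair of groups overlapped. With the longest GENCODE transcript as the gene length the share of Tcf7 was 16.1% and 27.5%, so the size of the share depends on the gene model. The summed level was 5.13 ± 0.103 FPKM in Control and 8.36 ± 0.314 FPKM in MMK-1 organoids.

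The order of the 10 genes by FPKM changed at the top. In Control organoids Myc was first, followed by Sox4, then Tcf7l2 and Sox9, whose ranges overlapped, then Mycl, Mycn, Ascl2 and Tcf7, with Tcf7l1 and Lef1 not separable at the bottom; the place of Tcf7 is uncertain in both groups, since its FPKM rests on a gene length far above that of its annotated transcripts. In MMK-1 organoids Sox4 was first and Myc second, and their ranges did not overlap in either group. Sox9 followed, Tcf7l2 and Mycl overlapped in the middle, and Ascl2 had passed Mycn, which overlapped with Tcf7. The place of Tcf7l2 beside Sox9 and Mycl also depends on the gene length. Its values imply 6495 bases, where its longest GENCODE transcript has 3715 and its joined exons 8775.

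**Figure D3:**
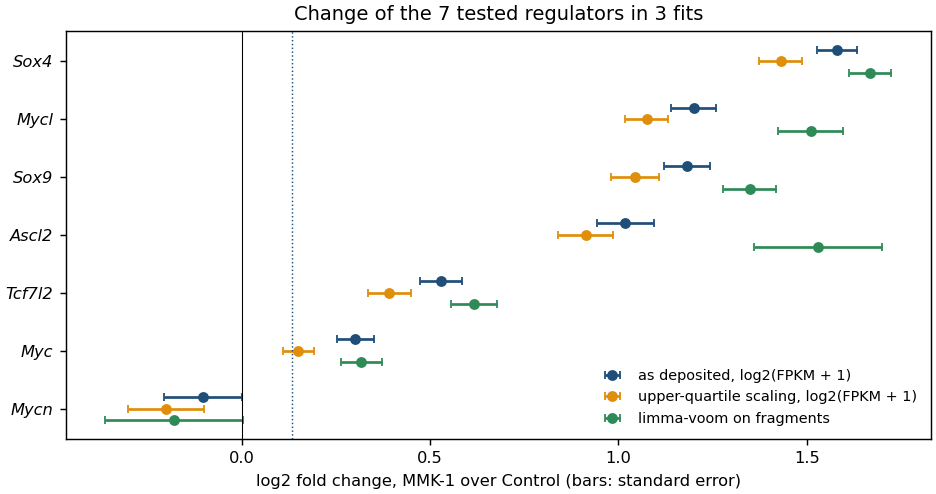
Log2 fold change, MMK-1 against Control, of the 7 genes tested, with bars for the SE, in 3 fits: log2(FPKM + 1) as deposited, the same after upper-quartile scaling, and voom on recovered fragments. The dotted line marks the median of all genes tested in the first fit (0.13; it was -0.0036 in the second and 0.17 in the third); Sox4, Mycl, Sox9 and Ascl2 lie at 0.91 or above in all 3 fits, Myc lies between 0.15 and 0.32, and Mycn lies below 0.

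The proteins that work with TCF factors were read next. Of 18 tested β-catenin/TCF cofactors 13 rose and 1 fell, that is 72.2% and 5.56% beside 48.5% and 24.7% of all genes, with a median log2 fold change of 0.28 where the median of all genes was 0.13. The largest increases were those of Hdac2, a histone deacetylase, at 0.69, Bcl9, the adaptor between β-catenin and Pygopus, at 0.68, and the corepressor Tle3 at 0.61. The gene that fell was Tle5, a short TLE protein without the repression domain, at -0.14 (limma adjusted p = 0.0091), and without Control replicate 2 the number of cofactors that fell was 0. Tle4, a full-length corepressor, had a log2 fold change of -0.02 (limma adjusted p = 0.74) and under upper-quartile scaling was called lower, at -0.16 (limma adjusted p = 0.017). Ctnnb1, which encodes β-catenin itself, was at 193 ± 2.36 FPKM in Control and 194 ± 1.06 FPKM in MMK-1 organoids (limma adjusted p = 0.88), though under upper-quartile scaling it was called lower, at -0.15 (limma adjusted p = 0.0021). Under that scaling 9 cofactors were higher and 3 lower, with a median of 0.13, where 34.8% of all genes were higher and 37% lower.

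The MAX network was split. Of its 10 genes 4 rose and 4 fell, that is 40% each, where 48.5% of all genes tested were higher and 24.7% lower, and the median log2 fold change was -0.03. The genes that rose were Mlxip at 0.35, Mxd3 at 0.30, Mxi1 at 0.27 and Mga at 0.23. Those that fell were Mxd1, a MAX partner that opposes MYC in differentiating cells, at -0.54 (limma adjusted p = 1.4e-05), Mlx at -0.39, Mxd4 at -0.26 and Mlxipl, the carbohydrate-response factor ChREBP, at -0.10, a marginal call (limma adjusted p = 0.047, and 0.053 in the fit of every gene above 0). The number that fell was 3 in that fit and without any 1 of the libraries other than MMK-1 replicate 3. Max, the shared partner, was at 21.1 ± 0.773 and 20.1 ± 0.235 FPKM (limma adjusted p = 0.16), and Mnt had a log2 fold change of 0.01, though under upper-quartile scaling both were called lower, at -0.22 (limma adjusted p = 0.0010) and -0.12 (limma adjusted p = 0.035). Under upper-quartile scaling 3 of the 10 were higher and 6 lower.

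Of 46 MYC target genes, mostly of ribosome synthesis, RNA processing and metabolism, 45 were tested, and 36 rose and 1 fell, that is 80% and 2.22% beside 48.5% and 24.7% of all genes, with a median log2 fold change of 0.39 beside 0.13. Hk2, a hexokinase, rose most, at 1.31, followed by Tcof1, a nucleolar factor of ribosomal RNA synthesis, at 0.74 and Pprc1 at 0.68. Odc1, the first enzyme of polyamine synthesis and a textbook MYC target, fell by 0.48 on the log2 scale, from 66.0 ± 1.30 to 47.0 ± 2.48 FPKM (limma adjusted p = 2.2e-05). The next lowest, Tfb2m and Ipo4, had log2 fold changes of -0.03 and -0.02 and did not pass. Under upper-quartile scaling 31 were higher and 4 lower, and the median was 0.24.

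Target genes of ASCL2 and TCF in the crypt base had the highest median change of the pathway lists examined. Of the 8 genes 7 were tested and all 7 rose under both scalings, with a median log2 fold change of 1.58. Of all genes tested 48.5% were higher as deposited and 34.8% under upper-quartile scaling. At least 2-fold was reached by 5 of the 7 as deposited, where 3.39% of all genes were, and under upper-quartile scaling Cdca7 fell short of it, at 0.97, where 2.13% of all genes reached it. Lgr5, the R-spondin receptor of stem cells, rose from 2.03 ± 0.113 to 21.0 ± 1.26 FPKM, a log2 fold change of 2.86. Axin2, a feedback inhibitor of Wnt signalling, was at 1.80, Ephb3, a receptor of crypt cell positioning, at 1.72 (0.774 and 4.86 FPKM, so that it passed the limit of 1 FPKM only through the MMK-1 group), Smoc2 at 1.58 and Cdca7 at 1.12. The smaller increases were those of Rnf43, a ubiquitin ligase that removes Wnt receptors, at 0.45 and Ets2 at 0.41. Tnfrsf19 was under the limit, at 0.0362 and 0.284 FPKM. The list was chosen with earlier results of these data known, and Lgr5 and Axin2 are also genes that the study singled out in these libraries. Neither the counts nor the median of this list, both of which include Ephb3, is therefore independent evidence.

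**Figure D4:**
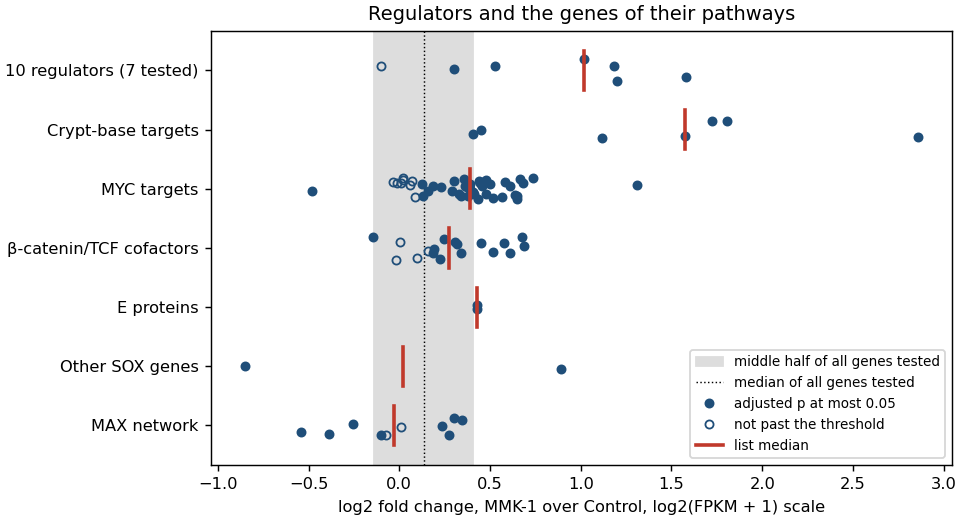
Log2 fold change, MMK-1 against Control, on the log2(FPKM + 1) scale for each tested gene of the pathway lists, with 1 point per gene (filled where the adjusted p is at most 0.05) and a bar at the median of each list; the grey band spans the quartiles of all genes tested (-0.14 to 0.41). The crypt-base targets have a median of 1.58, the MYC targets 0.39, the β-catenin/TCF cofactors 0.28 and the MAX network -0.03, where all genes tested have 0.13.

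Among relatives of the 10 genes, Sox12, which at 0.694 and 2.14 FPKM passed the limit of 1 FPKM only through the MMK-1 group, had a log2 fold change of 0.89, and Sox13 fell by 0.85 on the log2 scale, from 10.3 ± 0.296 to 5.30 ± 0.593 FPKM (limma adjusted p = 7.4e-06); these were the other SOX genes above the limit. Tcf3 and Tcf12, which encode the E proteins that pair with ASCL2, each rose by 0.43. Beside the 48.5% higher and 24.7% lower of all genes, over the other HMG-box genes in the table's own annotation 16 of 22 rose (72.7%) and 1 fell, with a median of 0.46. The other bHLH genes were nearer to that background, with 24 of 39 higher (61.5%), 8 lower (20.5%) and a median of 0.25. Of all 753 tested genes that the table assigns to a transcription factor family, 474 rose (62.9%) and 102 fell (13.5%), with a median of 0.28, and 29 rose by at least 2-fold, a share close to the 3.39% of all genes. Under upper-quartile scaling 14 HMG-box genes were higher and 3 lower, 20 bHLH genes higher and 10 lower, and 354 of the 753 higher and 157 lower.

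Genes whose profile over the 6 libraries was most like that of each gene past 2-fold were found by the root mean square difference between centred log2(FPKM + 1) values, a measure that favours changes of the same size. For Ascl2 these were Mcm3, a subunit of the replicative helicase, Fen1, the flap endonuclease, and Hmga1, at differences of 0.0187, 0.0332 and 0.0447. For Sox9 they were Snhg7, Pmepa1 and Nap1l1, at 0.0423, 0.0492 and 0.0589. For Sox4 they were Steap2, Ero1a and the Paneth cell gene Ang4, at 0.0436, 0.0520 and 0.0636. For Mycl they were Slc46a1, the folate transporter, the ETS factor Etv4, and Mbd3, at 0.0345, 0.0355 and 0.0403. Pmepa1, at 0.346 and 2.00 FPKM in Control and MMK-1, and Etv4, at 0.751 and 3.10 FPKM, passed the limit of 1 FPKM only through the MMK-1 group.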

How the data were processed

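RNA-seq libraries were made from total RNA of the organoids; the selection of RNA species and the use of strand are not given in the sources used here. The deposited table holds FPKM values per gene and library, made by the authors. The submitters' processing notes name HISAT2, HTSeq, DESeq2, R 3.2.0 and mm10 without roles. Fragments behind each value were recovered from the steps of the FPKM values (tolerance 0.01, all 21397 genes). A gene length at or near the smallest giving whole fragments in every library was taken. Counts can thus be too low by a whole factor shared by all libraries. Genes with a mean of at least 1 FPKM were tested on log2(FPKM + 1) with limma 3.58.1 (trend) in R 4.3.3, without covariates, with Benjamini-Hochberg adjustment over all 10551 genes, and called at an adjusted p of at most 0.05. Shares were compared by exact permutation. The alternatives were other scalings, filters and pseudocounts, a voom fit of fragments, removal of GC content, a replicate block and leaving out each library. Coordinates are those of GENCODE on GRCm38 (mm10). The genes and lists were chosen with earlier results of these data known. Named were all 10 genes, the 3 largest changes in each direction per pathway list, any gene that a small count turned on, the 3 nearest profiles of genes past 2-fold, and markers beside a result; the Ctnnb1, Max and Mnt values were added after they were seen. The limma steps were tested on simulated data.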

Additional observations from a re-analysis of the deposited data

How the results depend on the processing

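The 6 genes called higher were called under every scaling, filter, pseudocount and left-out library tried. In the fits of every gene above 0 and in the voom fit Tcf7 was called too, which made 7 genes higher. The number of the 7 tested genes called lower ran from 0 to 1 over the left-out libraries, the 1 being Mycn without MMK-1 replicate 3. Requiring a 2-fold change left 358 genes higher and 385 lower of all tested. Under upper-quartile and under median-of-ratios scaling 3 cofactors and 4 MYC targets were lower (Odc1, Ipo4, Exosc5 and Slc19a1 under upper-quartile scaling); the cause was not tested. The count of cofactors lower ran from 0 to 1 over the left-out libraries, Tle5 being lost without Control replicate 2. Of the other SOX genes, 2 were lower in the fit of every gene above 0 and in the voom fit, which test more genes, and 2 were higher in the fit of every gene above 0 with a pseudocount of 0.1. The share of Tcf7l1 in the TCF sum, on under 10 fragments per library, ran from -0.0024 to 0.078 percentage points (MMK-1 minus Control) over the left-out libraries and reversed without MMK-1 replicate 1, which held 6 of the 9 MMK-1 fragments.

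Replicate numbers are shared by the groups, but same-numbered libraries did not deviate together (correlations of 0.025, -0.04 and 0.028). With 3 libraries per group this cannot show whether same-numbered samples shared mice or a culture. A fit with the replicate number as a block called 5024 genes higher and 2543 lower, and of the 7 genes tested 6 higher and 0 lower.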
